A study of Mus musculus with 2 samples.

Results

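The 49 genes described here encode enzymes and subunits that write, erase, read or reposition the chemical and physical marks of chromatin. They were taken by name in 5 classes, 10 genes of DNA methylation, 8 of histone deacetylation, 14 of histone methylation, 9 of the CHD family and 8 of the SWI/SNF complex, out of 21755 protein-coding genes outside the Y and mitochondrial chromosomes in GENCODE M21. The measurements were 2 DNase-seq libraries from tissue labelled as a layer of hippocampus, taken as nuclei, of B6CASTF1/J mice aged 25 days and labelled male, which form 1 group, biological replicates 1 and 2. B6CASTF1/J is a first-generation cross of an inbred laboratory strain with the wild-derived CAST strain, and both libraries were placed on the mm10 reference. Both carried the same donor entry. The group has no treated or control counterpart, so the comparisons are between these genes and other genes, and between the libraries.

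DNase-seq reads where the nuclease DNase I cuts chromatin. A peak is a stretch cut often, and a footprint is a short stretch inside such an accessible region that is cut less than its surroundings, as happens where a protein covers the DNA. In whole tissue, fewer cells with an accessible site and less access per cell cannot be told apart. The value of a peak is the authors' signal, with a scaling not given in the sources used here, so values describe and rank peaks within a library.

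DNA methyltransferases add methyl groups to cytosine, TET enzymes oxidise them, and methyl-CpG-binding proteins read them. Histone deacetylases remove acetyl groups from histone tails. Of the histone methylation genes, most KMT2 and SETD1 proteins methylate lysine 4 of histone H3, EHMT1 and EHMT2 methylate lysine 9, and EZH1 or EZH2 with EED and SUZ12 form Polycomb repressive complex 2, which methylates lysine 27. CHD and SWI/SNF proteins use ATP to slide or evict nucleosomes. In the hippocampus these systems are known for their part in neuronal maturation, plasticity and memory, and mutations in many of the human genes cause neurodevelopmental disorders.

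Replicate 1 had 93545 peaks and 223251 footprints, and replicate 2 had 79144 peaks and 170016 footprints. Their sequencing depth is unknown. Of 10 neuronal marker genes, 9 had a promoter peak in both libraries, against 3 of 5 astrocyte, 1 of 5 oligodendrocyte, 0 of 5 microglial and 0 of 5 endothelial and mural markers. Erythroid markers reached 2 of 5, liver markers 1 of 5 and markers of cerebellum and hindbrain 1 of 5. Xist had a promoter peak of 1.01 in replicate 2 and none in replicate 1, and 4 Y-linked genes had one in replicate 1 and none in replicate 2. The second library thus goes against its label, and both together go against the shared donor entry. Differences between replicates name it as the library labelled male replicate 2.

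Every one of the 49 genes had a promoter peak in both libraries, that is, a peak reaching within 1 kb of an annotated transcription start site (TSS). Coding genes with such a peak in both libraries are called accessible below. Among all protein-coding genes this held for 63.2%. The genes also share a sequence property that the choice did not use. A gene was called CpG-rich by an observed over expected CpG ratio of at least 0.6 and at least 50% G and C over 1 kb. Both limits were applied at its TSS with the highest ratio. By this rule 46 of the 49 had a CpG-rich promoter, against 51.3% of all coding genes. Among CpG-rich genes, 94.9% were accessible, so a full count is near that background. In the authors' shorter peak lists 48 of the 49 had a promoter peak in both libraries, against 57.7% of all genes, and Chd5 lacked one in replicate 1. The exceptions by this CpG rule were Hdac3, Hdac11 and Chd2. Chd2 had a ratio of 0.840 and failed on G and C, 48.6%, at the TSS used, and its other TSSs were not judged. The genes had a median of 7 annotated TSSs, against 3 over all coding genes, and more TSSs give more windows in which a peak can fall.

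Promoter sequences that overlap peaks of high value are shown as examples. For each class the lines below give the promoter with the highest mean value among those whose entry in the RefSeq promoter table (GRCm38.p6, 250 bases before the start to 50 after it) overlapped its strongest peak in both libraries. Each is 300 bases, and capitals mark bases that lay in footprints of both libraries. The table held an entry for 37 of the 49 genes.
Dnmt1 promoter, chr9:20952574-20952873, minus strand: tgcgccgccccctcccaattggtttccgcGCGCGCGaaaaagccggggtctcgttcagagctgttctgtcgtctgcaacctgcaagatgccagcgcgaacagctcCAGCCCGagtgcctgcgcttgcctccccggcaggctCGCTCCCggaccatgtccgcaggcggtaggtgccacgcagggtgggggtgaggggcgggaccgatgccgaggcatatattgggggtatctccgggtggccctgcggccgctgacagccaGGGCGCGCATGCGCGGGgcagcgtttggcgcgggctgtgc
Hdac4 promoter, chr1:92180292-92180591, minus strand: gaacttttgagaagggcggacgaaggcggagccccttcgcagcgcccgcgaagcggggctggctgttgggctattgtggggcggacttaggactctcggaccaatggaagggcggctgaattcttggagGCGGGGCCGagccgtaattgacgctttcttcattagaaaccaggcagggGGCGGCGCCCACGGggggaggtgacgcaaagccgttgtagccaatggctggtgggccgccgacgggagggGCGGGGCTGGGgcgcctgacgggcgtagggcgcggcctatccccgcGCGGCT
Kmt2a promoter, chr9:44881240-44881539, minus strand: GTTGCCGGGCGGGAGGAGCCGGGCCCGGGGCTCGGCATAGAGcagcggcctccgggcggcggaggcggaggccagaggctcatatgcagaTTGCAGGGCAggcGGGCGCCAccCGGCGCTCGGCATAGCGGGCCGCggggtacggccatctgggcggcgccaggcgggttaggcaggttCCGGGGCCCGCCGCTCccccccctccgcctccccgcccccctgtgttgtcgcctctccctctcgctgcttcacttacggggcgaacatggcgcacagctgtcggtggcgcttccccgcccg
Chd9 promoter, chr8:90828585-90828884, plus strand: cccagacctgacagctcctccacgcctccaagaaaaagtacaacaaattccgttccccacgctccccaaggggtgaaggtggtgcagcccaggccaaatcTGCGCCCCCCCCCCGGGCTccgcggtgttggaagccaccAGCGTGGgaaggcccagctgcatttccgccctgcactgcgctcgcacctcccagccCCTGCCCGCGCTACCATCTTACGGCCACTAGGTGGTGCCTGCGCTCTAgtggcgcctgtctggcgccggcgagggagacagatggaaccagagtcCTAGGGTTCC
Smarca4 promoter, chr9:21615919-21616218, plus strand: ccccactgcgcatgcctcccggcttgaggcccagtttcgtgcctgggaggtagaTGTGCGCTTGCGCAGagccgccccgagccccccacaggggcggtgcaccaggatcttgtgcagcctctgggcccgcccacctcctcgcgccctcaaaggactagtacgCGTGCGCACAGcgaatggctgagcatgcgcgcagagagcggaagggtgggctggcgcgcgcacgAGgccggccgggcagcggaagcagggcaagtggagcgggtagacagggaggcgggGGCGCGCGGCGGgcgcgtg
Kmt2a had 99 capital bases, in blocks along the upstream part of the stretch, and Chd9 had 84. The promoters of Dnmt1, Hdac4 and Smarca4 had 38, 40 and 40. Not all of each stretch lay in the strongest peak. For Hdac4, 51 and 109 of the 300 bases did in replicates 1 and 2, and for Kmt2a 219 and 139. For Chd9 these were 224 and 204, and for Dnmt1 and Smarca4 all 300 in both libraries.

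Promoter values of the members ran between 0.793, at Dnmt3b, and 6.01, at Kmt2a, both in replicate 2. To set libraries side by side, each gene's strongest promoter peak was ranked among all genes with a promoter peak in that library, on a scale of 0 to 100. The median rank was 78.3 for the members (78.6 in replicate 1 and 74.3 in replicate 2), against 51.9 for accessible genes, 59.7 for CpG-rich accessible genes and 62.4 for those of them with at least 4 TSSs. Ranks of at least 75 in both libraries were reached by 24 of the 49, against 12.5% of all coding genes. Of the 13742 accessible genes 2709 reached them, and of the 7066 CpG-rich accessible genes with at least 4 TSSs 1844 did. Values over the median of accessible genes, which was 2.22 in replicate 1 and 2.11 in replicate 2, were found in both libraries for 33 members, and values under it in both for 6. Those 6 were Dnmt3a, Dnmt3b, Hdac7, Hdac9, Hdac11 and Chd5.

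**Figure D1:**
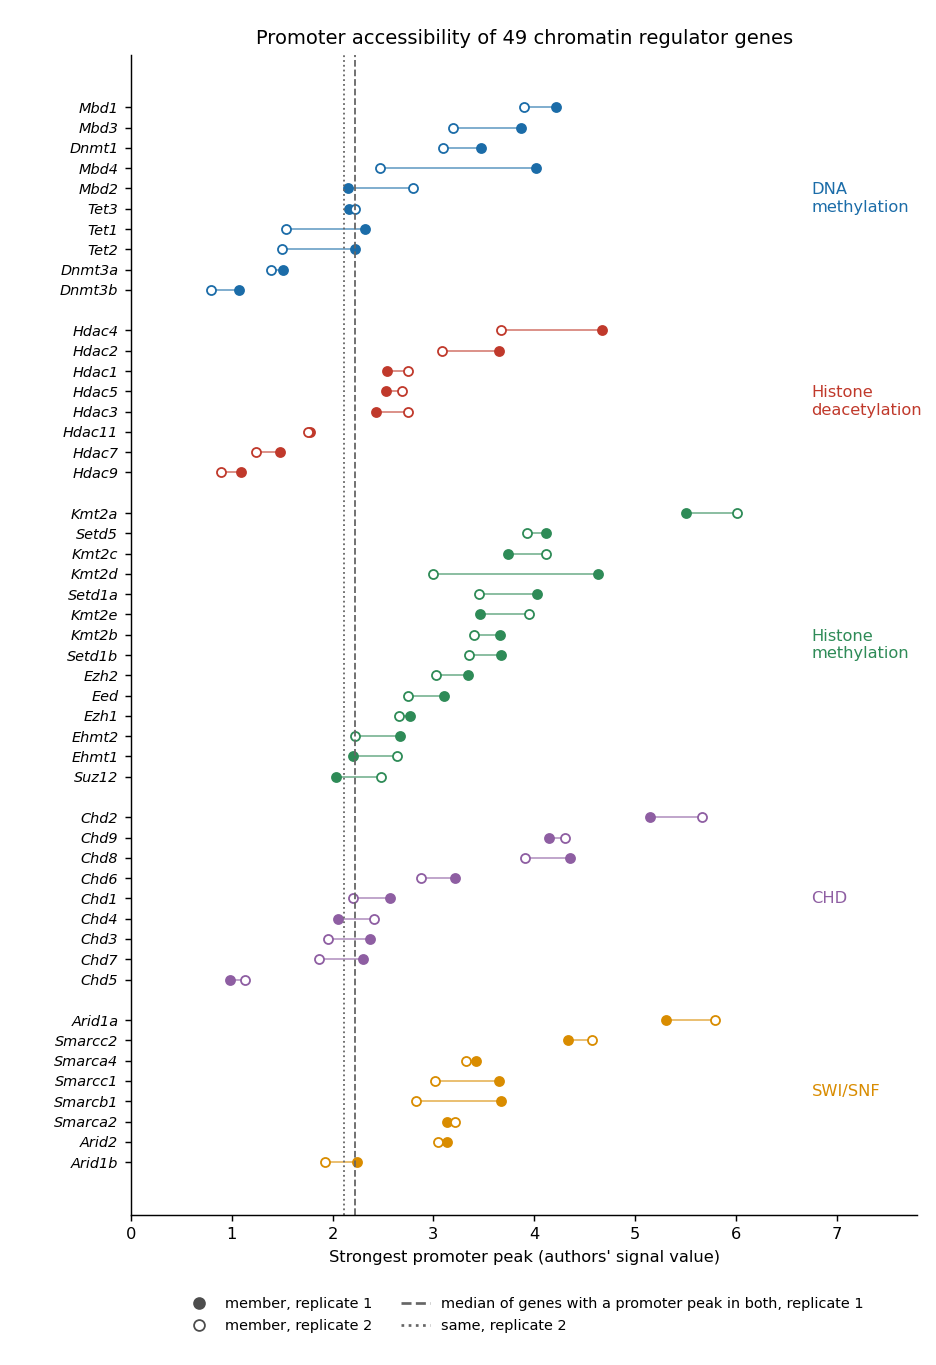
Signal value of the strongest promoter peak (x axis, authors' signal) for each of the 49 genes (rows, grouped by class), filled circles for replicate 1 and open circles for replicate 2, with dashed and dotted lines at the medians of 2.22 and 2.11 over accessible genes. Kmt2a, Chd2 and Arid1a lie above 5 in both libraries, and Dnmt3b, Hdac9 and Chd5 lie below 1.2 in both.

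The histone methylation genes had the highest median rank of the 5 classes. Their median rank was 87.8, with 87.4 in replicate 1 and 83.0 in replicate 2, and 9 of the 14 reached a rank of 75 in both libraries. Kmt2a, a lysine 4 methyltransferase known for its part in memory formation, had 5.50 in replicate 1 and 6.01 in replicate 2, a mean of 5.76 ± 0.356 (SD, n = 2). This was the highest mean of all 49, at chr9:44881321-44881640 in replicate 1, beside an annotated start of the gene. Setd5, a SET-domain protein linked to intellectual disability in people, had 4.11 and 3.93 in replicates 1 and 2. Kmt2c, Kmt2e, Setd1a and Kmt2b, of the lysine 4 families, lay between 3.40 and 4.12 in both libraries. Ehmt1 and Ehmt2, the lysine 9 methyltransferase genes, lay lower, with 2.20 and 2.64 for Ehmt1 and 2.66 and 2.22 for Ehmt2 in replicates 1 and 2. Lowest of the class was Suz12, the Polycomb subunit that stabilises the complex, with 2.04 and 2.48 in replicates 1 and 2. The Polycomb methyltransferase genes Ezh2 and Ezh1 had 3.34 and 2.77 in replicate 1, against 3.03 and 2.66 in the library labelled male replicate 2. Eed, which binds the mark that the complex lays down, had 3.10 and 2.75 in replicates 1 and 2. So the 4 Polycomb genes lay between 2.04 and 3.34 in both libraries, while the 7 KMT2 and SETD1 genes lay between 2.99 and 6.01, and the ranges overlapped. These ranges depend on the window of 1 kb. With 500 bp, Kmt2d and Setd1b lay below 2.04 in both libraries, so the contrast does not hold for all 7.

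For Kmt2d and Setd1b the strongest promoter peak lay over 500 bp from the annotated starts in both libraries. In replicate 2 alone this was also so for Kmt2c and Kmt2e. Kmt2d, another lysine 4 methyltransferase, had 4.63 in replicate 1, against 2.99 in the library labelled male replicate 2. With a window of 500 bp these became 0 and 0.877. Setd1b, a catalytic subunit of the SET1 complex, had 3.67 and 3.35 in replicates 1 and 2, and 1.30 and 1.17 with the narrower window. With that window the class median became 72.3, below the SWI/SNF median of 81.6, and Kmt2d and Setd1b held the middle ranks of the class in the wider window. The SWI/SNF genes Arid2 and Smarcc2 were likewise lower with it. Arid2 had 1.79 and 1.70 in replicates 1 and 2, and Smarcc2 had 2.38 and 1.96.

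SWI/SNF genes had a median rank of 82.9, with 86.9 in replicate 1 and 82.0 in replicate 2, and 6 of the 8 reached a rank of 75 in both. Arid1a, the large DNA-binding subunit of the canonical BAF form, had 5.31 and 5.79 in replicates 1 and 2. Its strongest peak covered the same bases, chr4:133754261-133754500, in both. Smarcc2, a scaffold subunit, followed with 4.33 and 4.57. Lowest was Arid1b, the alternative to ARID1A in the same complex and a common cause of syndromic intellectual disability, with 2.24 and 1.92. The ATPase genes Smarca4 and Smarca2 had 3.42 and 3.13 in replicate 1, against 3.32 and 3.22 in the library labelled male replicate 2. Their difference was small beside the spread over the class, whose other members Smarcb1, Smarcc1 and Arid2 lay between 2.83 and 3.67 over both libraries.

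Deacetylase genes had a median rank of 65.8, with 60.6 in replicate 1 and 71.1 in replicate 2. Hdac4, whose protein shuttles between cytoplasm and nucleus with neuronal activity, had 4.67 in replicate 1, against 3.67 in the library labelled male replicate 2. Hdac2, known as a brake on memory formation in mouse hippocampus, had 3.65 and 3.09. The other class I genes, Hdac1 and Hdac3, had 2.54 and 2.43 in replicate 1 and 2.75 each in replicate 2. Hdac5, a class IIa gene like Hdac4, had 2.53 and 2.69. These 5 genes lay above the other 3 in both libraries. Hdac11, the single class IV member, had 1.77 and 1.75. The class IIa genes Hdac7 and Hdac9 had 1.48 and 1.09 in replicate 1, against 1.24 and 0.890 in the library labelled male replicate 2.

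CHD genes had a median rank of 58.9 and ranks of single genes from 18.7 to 99.1. Chd2, a remodeller whose loss causes childhood epilepsy in people, had 5.15 and 5.67 in replicates 1 and 2. Chd9 followed with 4.15 and 4.31, and Chd8, a gene often mutated in autism, with 4.35 and 3.91. Chd5, a neuronal member of the NuRD-type remodellers, had the lowest values of the class at 0.982 and 1.13. Its NuRD relatives Chd3 and Chd4, which carry the ATPase of the nucleosome remodelling and deacetylase complex, had 2.37 and 2.06 in replicate 1, against 1.95 and 2.41 in the library labelled male replicate 2. Chd6 had 3.22 and 2.88 in replicates 1 and 2, Chd1 had 2.57 and 2.20, and Chd7, the CHARGE syndrome gene, had 2.30 and 1.87.

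DNA methylation genes had the lowest median rank, 56.9, with 53.6 in replicate 1 and 59.1 in replicate 2, though with basic coding transcripts alone the CHD genes were lowest, at 53.9. The maintenance methyltransferase Dnmt1 had 3.47 and 3.09 in replicates 1 and 2. The de novo methyltransferases lay lower, Dnmt3a, the main one of postnatal neurons, at 1.51 and 1.39, and Dnmt3b, best known from early embryos, at 1.07 and 0.793. Of the TET genes, Tet1 had 2.32 and 1.54 in replicates 1 and 2, Tet2 had 2.22 and 1.502, and Tet3 had 2.16 and 2.22. Mbd1, Mbd3 and Mbd4 lay above all TET genes in both libraries, and Mbd2 lay above them in replicate 2. Mbd1 had 4.22 and 3.90 in replicates 1 and 2, Mbd3 had 3.87 and 3.20, Mbd2 had 2.15 and 2.80, and Mbd4, which encodes a glycosylase that repairs deaminated methylcytosine, had 4.01 and 2.47. A start of the gene Ift122 lies 99 bp from that of Mbd4 on the other strand, so this peak cannot be assigned to 1 of them. The same holds for Hdac3 with Rell2, 63 bp away, Ehmt2 with C2, 204 bp away, and 1 start of Smarcc1 with Dhx30, 76 bp away.

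No member differed over 2-fold between the libraries after centring on the median log2 ratio of accessible genes (0.11, replicate 1 over replicate 2), and of accessible genes 0.24% did. Each value is the strongest peak of its own library, so the ratio does not always compare the same site. For Dnmt3a, Mbd3, Hdac4, Hdac5, Kmt2e and Smarcc1, among others, the strongest peaks of the libraries did not overlap. The largest centred difference was that of Mbd4, 0.59 on the log2 scale, followed by Kmt2d with 0.52.

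More than 1 promoter was accessible in 13 of the 49 genes, 26.5%, against 7.73% of all coding genes. That count takes peaks in both libraries at groups of TSSs over 2 kb apart. Among CpG-rich accessible genes with at least 4 TSSs the share was 18.1%. The 13 were 3 DNA methylation genes, 3 deacetylase genes, 4 CHD genes and 3 SWI/SNF genes. None of the 14 histone methylation genes was among them.

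Distances between promoters run from the main start site, the one nearest the strongest peak, to the middle of the other group of starts. Chd9 showed peaks at 3 promoters in both libraries. The first had 4.15 and 4.31 in replicates 1 and 2, another 79.8 kb into the gene had 2.89 and 2.35, and the last, at 126.4 kb, had 1.65 and 1.28. Smarca2 also had 3. Its first promoter had 3.13 and 3.22, the next, 2.22 kb on, had 2.07 and 1.52, and an internal group of 23 annotated TSSs, centred 145.6 kb into the gene, had 1.51 and 0.915. Most transcripts annotated from that group code for protein, 20 of them.

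Tet1 and Tet3 had their strongest peaks at starts that are not the first annotated one. In Tet1 the start of a noncoding transcript, at position 62865304 of chromosome 10, had 2.32 and 1.54 in replicates 1 and 2. A pair of coding starts 22.1 kb upstream of it had 0.431 and 0.483. The other 5 groups of Tet1 starts had no peak and no base with an FDR under 0.05 in either library. Tet3 had 2.16 and 2.22 at its main start, and lower values, 1.018 and 1.064, at a start 14.7 kb upstream. In Hdac9 the strongest peak was at the start of a noncoding transcript, with 1.09 and 0.890, and a coding start 288.5 kb further in had 0.346 and 0.335. The group of starts of 6 coding transcripts, at 378.4 kb, had 0.714 in replicate 1 and no peak in the library labelled male replicate 2.

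In Chd8, Smarcc1 and Hdac5 a pair of promoters had values close to each other. Chd8 had 4.35 and 3.91 at its first promoter and 3.86 and 3.20 at one 13.3 kb further in. For Smarcc1 the first, shared with Dhx30, had 3.65 and 2.29, and the second, 14.3 kb on, had 3.37 and 3.02. Hdac5 had 2.33 and 2.69 at its first promoter and 2.53 and 2.40 at its second. In Arid1a, Chd2 and Chd3 the first start was the weaker. Arid1a had 2.92 and 3.11 at its first start and 5.31 and 5.79 at the next, 2.79 kb on. Chd2 had 1.08 and 1.12 at its first and 5.15 and 5.67 at the next, and Chd3 had 0.961 and 0.890 at its first and 2.37 and 1.95 at the next. Dnmt3b and Hdac11 had a weaker second promoter at a noncoding start, 0.488 and 0.587 for Dnmt3b and 1.21 and 1.73 for Hdac11. Which of these promoters is transcribed was not measured.

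**Figure D2:**
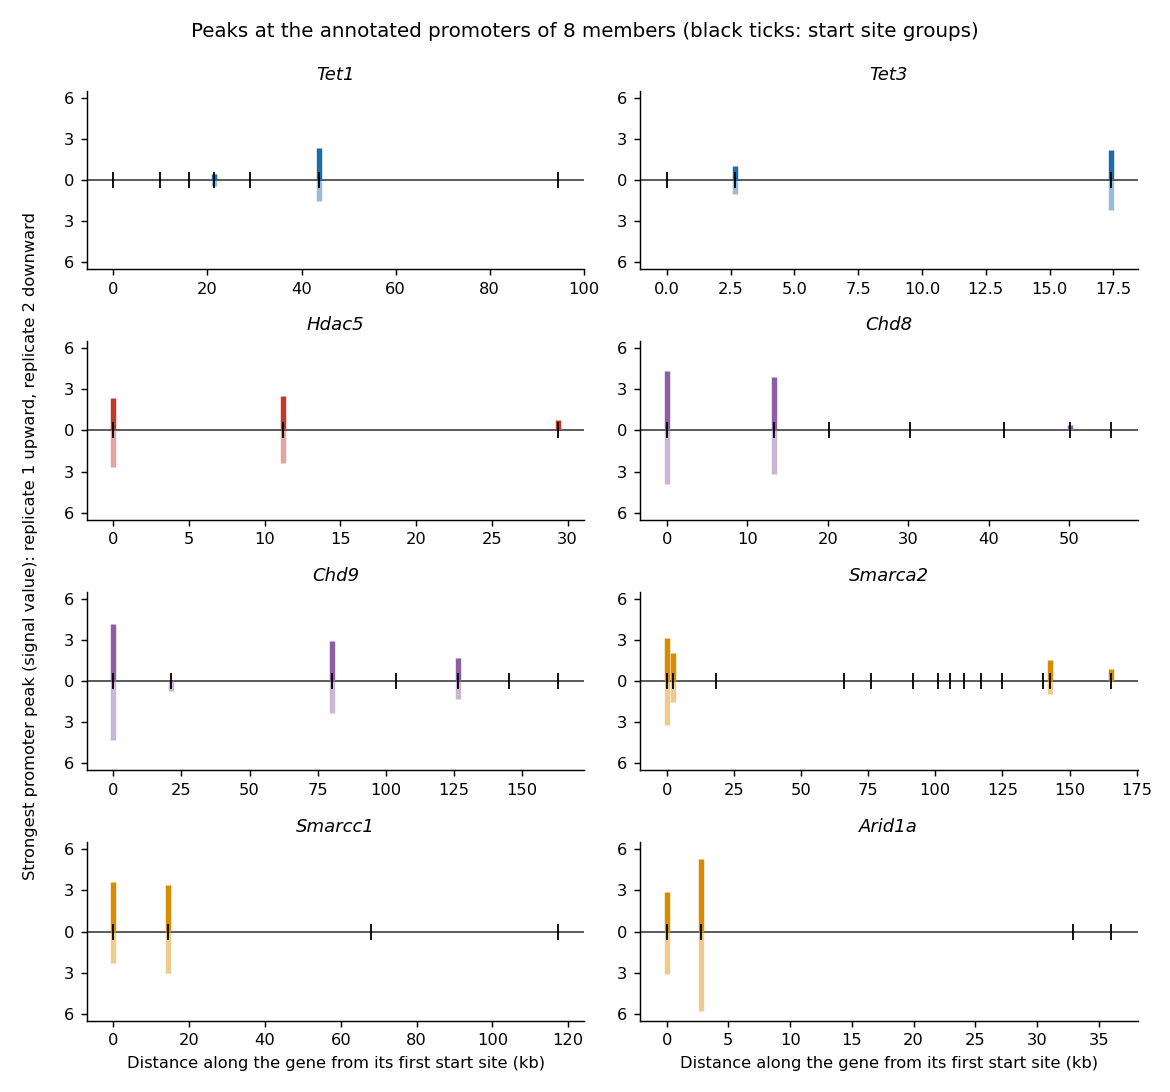
Strongest peak (y axis, authors' signal value, replicate 1 upward and replicate 2 downward) at each group of annotated start sites (black ticks) along 8 genes, by distance in kb from the first start of the gene (x axis). Chd9 and Smarca2 carry 3 accessible promoters each in both libraries, and the highest bar of Tet1 and of Tet3 is not at the first tick.

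Distal peaks were counted in the gene body and 10 kb on each side, leaving out peaks that touch the promoter window of any coding gene. The members had 188 distal peaks in replicate 1 and 195 in replicate 2, with at least 1 in both libraries for 33 of the 49 (67.3%), against 49.5% of all coding genes. The share was 59.3% in accessible genes and 60.8% in CpG-rich accessible genes with at least 4 TSSs. Long genes hold more peaks, and the members were long, with a median of 57.9 kb against 17.4 kb over all coding genes. Each count was therefore given as a percentile among the 200 coding genes nearest in length. The median percentile of the members was 56.4, with 51.8 in replicate 1 and 60.2 in replicate 2, against 45.4 for all coding genes and 52.6 for accessible ones. Percentiles of at least 75 in both libraries were found for 14 of the 49, against 16.3% of all genes and 2606 of the 13742 accessible ones.

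**Figure D3:**
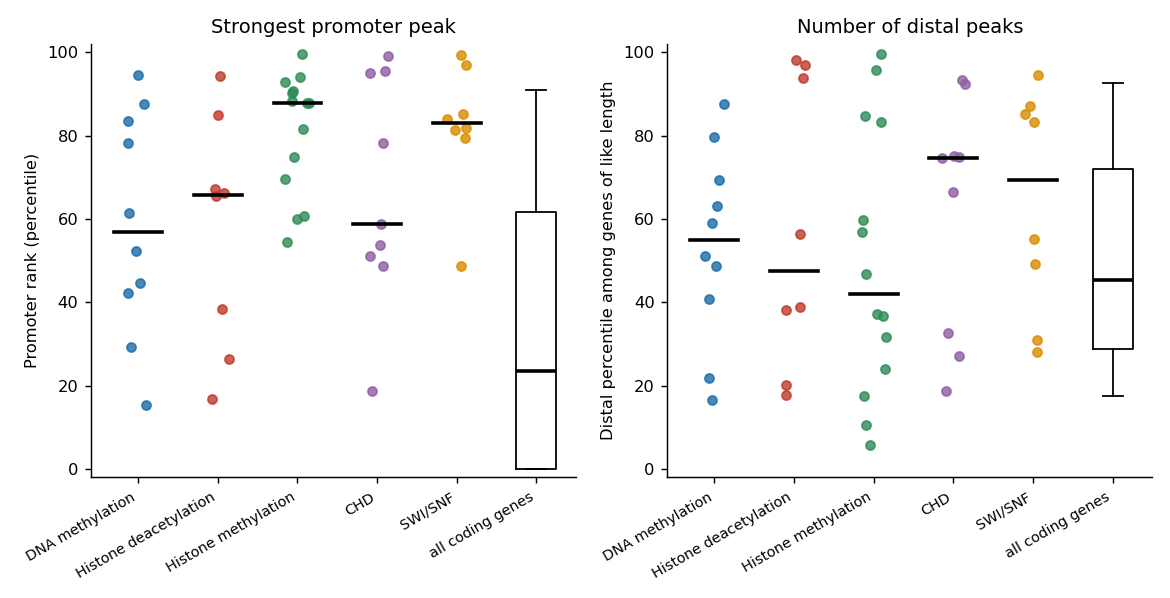
Promoter rank (left) and distal percentile among genes of like length (right), each the mean of both libraries, for the members by class (points, with a bar at the class median) and for all coding genes (box from the lower to the upper quartile, line at the median, whiskers from the 5th to the 95th percentile). Histone methylation genes have the highest median promoter rank, 87.8, and the lowest median distal percentile, 42.0.

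By class the order was not that of the promoters. CHD genes had a median distal percentile of 74.6, with 66.0 in replicate 1 and 80.8 in replicate 2, and SWI/SNF genes had 69.2. DNA methylation genes had 55.1, deacetylase genes 47.6 and histone methylation genes 42.0. Within each class the spread was wide, from 5.75 to 99.5 in the histone methylation genes. The class medians moved with the flank counted and with the peak list, and their order is not firm.

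Setd1b and Hdac5 had the highest percentiles of the 49, 99.5 and 98.1. Setd1b, 26.4 kb long, had 12 and 14 distal peaks in replicates 1 and 2. In replicate 1 a group of 8 of them lay upstream of the gene, between 2.25 and 7.54 kb from its start, and all 8 overlapped a peak of replicate 2. The strongest, chr5:123139001-123139520, had 2.58 in replicate 1 and its partner had 2.05 in replicate 2. Another shared peak, 7.64 kb into the gene, had 2.32 and 2.62. Hdac5 had 12 and 13 in 35.7 kb, all in introns, of which 5 in the library labelled male replicate 2 lay in a dense run of weak peaks without a partner in replicate 1. Kmt2d, with a percentile of 95.9, had 6 and 9 in 39.5 kb, and 5 of the 9 lay in a run of the same kind.

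Counts of the deacetylase genes are given by known subfamily, a grouping made after their values were seen. The class I genes Hdac1 and Hdac2 had no distal peak in either library and Hdac3 had 1 in replicate 1. Among the class IIa genes, Hdac4 had 9 and 6 in replicates 1 and 2, Hdac5 had 12 and 13, Hdac7 had 10 and 6, and Hdac9 had 13 and 10. These genes also differ in length: Hdac9 spans 869.5 kb and its percentile was 38.1, while Hdac7, at 51.8 kb, stood at 96.9. Hdac1, Hdac2 and Hdac3 stood at 20.2, 17.9 and 38.9, so by percentile the subfamilies overlapped. Hdac8, a class I gene of the wider list described last, had 4 and 2 distal peaks. Hdac11 had 4 in each library in 18.03 kb, a percentile of 93.9.

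In all, 8 members had no distal peak in either library. They were Dnmt1, Mbd1, Hdac1, Hdac2, Kmt2b, Ehmt1, Ezh2 and Suz12. Ehmt1, a lysine 9 methyltransferase gene of 129.7 kb, had the lowest percentile of the 49, at 5.75. Its partner Ehmt2 had 1 in each library. Among the DNA methyltransferase genes, Dnmt1 had none, Dnmt3b had 1 and 1, and Dnmt3a had 4 and 9 in replicates 1 and 2. Tet3 had 8 and 6, a percentile of 87.6.

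Of the 9 CHD genes, Chd3 and Chd4 stood at percentiles of 93.2 and 92.4, with 4 and 5 distal peaks in replicate 1 and 5 each in replicate 2. Chd9 had 8 and 9 and Chd7 had 8 and 6. Chd6 was lowest, at 18.8. Chd2 differed most between the libraries, with 2 in replicate 1, against 20 in the library labelled male replicate 2. Of those 20, 18 formed 1 dense run of weak peaks between 9.55 and 18.02 kb from its main start site, with values of 0.0645 to 0.490, none of which overlapped a peak of replicate 1. The other 2 lay downstream of the gene and were shared with replicate 1.

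**Figure D4:**
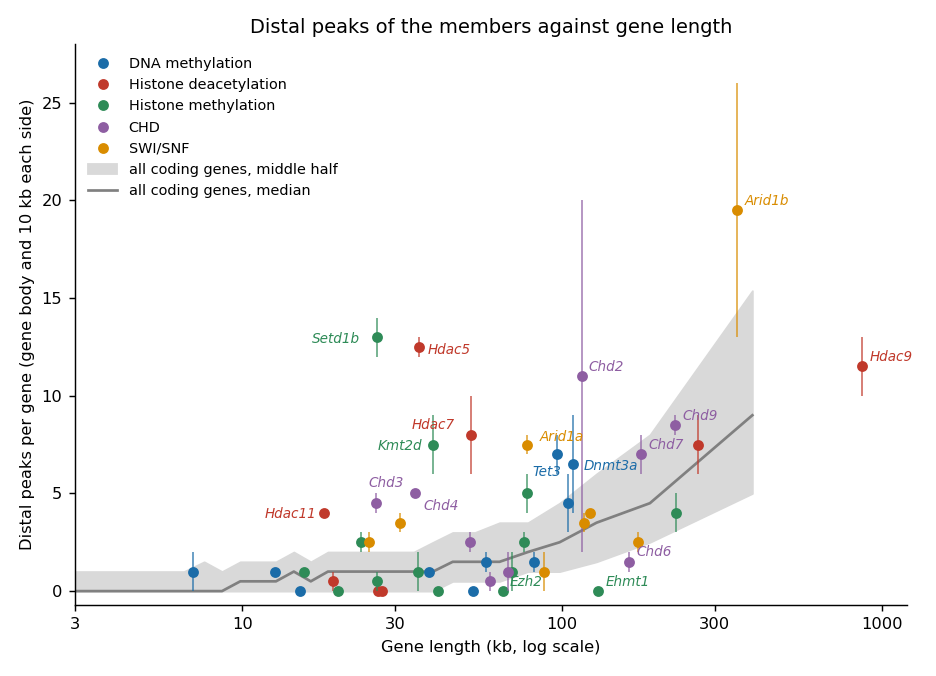
Distal peaks per gene (y axis) against gene length (x axis, kb, log scale) for the 49 members (points at the mean of both libraries, vertical lines joining the libraries' values, colours by class), with the median and interquartile range of all coding genes in grey. Setd1b, Hdac5, Hdac7 and Kmt2d lie far above genes of their length, Ehmt1 and Ezh2 lie at 0, and the line of Chd2 spans 2 to 20.

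Arid1b had the largest number, 26 in replicate 1, against 13 in the library labelled male replicate 2, in 353.3 kb. Its strongest distal peak shared by both libraries was chr17:5189721-5190180 in an intron 193.5 kb into the gene, with 2.73 in replicate 1, against 1.96 in the library labelled male replicate 2. Arid1a had 7 and 8 in 77.8 kb, a percentile of 94.5. Smarca4 had the lowest percentile of the class, with 2 and 0 in replicates 1 and 2.

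By the mean of both values, the strongest distal peak with a partner in the other library lay 1.24 kb upstream of the main start of Kmt2e. It had 4.61 in replicate 1, and its partner had 3.94 in replicate 2. That partner reached the promoter window and counted as the promoter peak of Kmt2e, which had no distal peak in replicate 2. Peaks of Chd3, Setd1b and Arid2 also had higher means than that of Arid1b, and the Chd3 peak had 2.60 and 2.41. Another shared peak lay in an Arid1b intron, at chr17:5295761-5296060 in replicate 1, with 1.86 in replicate 1 and 1.62 in replicate 2. The central 200 bases of both Arid1b peaks follow, as examples of shared sites deep inside a gene, with capitals for bases in footprints of both libraries.
Arid1b distal peak, chr17:5189851-5190050, plus strand: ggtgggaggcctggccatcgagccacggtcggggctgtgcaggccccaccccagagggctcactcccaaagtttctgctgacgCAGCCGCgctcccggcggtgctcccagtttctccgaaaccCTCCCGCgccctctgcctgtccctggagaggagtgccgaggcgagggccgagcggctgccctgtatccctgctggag
Arid1b distal peak, chr17:5295811-5296010, plus strand: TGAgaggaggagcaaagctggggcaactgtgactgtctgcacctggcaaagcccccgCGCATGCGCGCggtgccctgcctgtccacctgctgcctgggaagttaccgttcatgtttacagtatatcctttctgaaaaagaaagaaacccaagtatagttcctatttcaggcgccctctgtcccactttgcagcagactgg
The capitals of the last sequence hold, read on the minus strand, the letters of the NRF1 motif searched here, GCGCATGCG. A match of letters is a description and does not identify the bound protein.

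About 3 in 5 of the members' distal peaks overlapped a peak of the other library, which could also be a promoter peak there. In replicate 1, 113 of 188 (60.1%, exact 95% binomial interval 52.7% to 67.2%, counting error only) overlapped a peak of the other library by at least 1 bp, and in replicate 2, 116 of 195 (59.5%, 52.2% to 66.4%). These intervals treat peaks as independent and may be too narrow. Peaks cluster by gene, some overlap each other, and 29 of the 195 lay in dense runs without a partner. Over the distal peaks of all coding genes these shares were 49.4% and 64.2%. Of the peaks not shared, 12 of 75 and 12 of 79 held in the other library a base whose FDR was under 0.05. Shared peaks were stronger, with median values of 0.940 in replicate 1 and 0.793 in replicate 2, against 0.587 and 0.432 for those not shared. Introns held the largest number, 103 and 125, and 16 and 13 lay over coding sequence.

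Footprints inside promoter peaks were present in both libraries for 47 of the 49, 95.9%, against 60.9% of all coding genes. Of accessible genes 96.4% had them, and of CpG-rich accessible genes 98.3%, so the members' share is near that background. Chd1 had 10 in replicate 1, against 0 in the library labelled male replicate 2, and Chd5 had 6, against 0. There were 530 in replicate 1 and 429 in replicate 2, of which 44.0% and 51.0% overlapped a footprint of the other library. For accessible genes these shares were 37.2% and 46.8%. The median was 9.19 footprints per kb of promoter peak in the members, with 8.97 in replicate 1 and 9.06 in replicate 2, against 10.1 in accessible genes. CHD genes had the lowest class median, 7.54, with Chd5 at 2.57 ± 3.64 (SD, n = 2), and Mbd1 and Kmt2d had the highest values, 18.8 ± 4.42 and 19.1 ± 14.2.

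Footprints of the members reached further upstream of the main start site. This was noticed in the plot of footprints by distance and counted afterwards. Between 200 bp and 1 kb upstream, 42 of the 49 had a footprint in replicate 1, against 51.7% of accessible genes, and 36 had one in replicate 2, against 42.9%. In CpG-rich accessible genes with at least 4 TSSs these shares were 58.4% and 48.5%. Of all footprints within 1 kb of the start, 39.3% and 36.5% lay in that stretch in the members, against 21.9% and 20.3%, and against 22.7% and 20.7% in CpG-rich accessible genes with at least 4 TSSs. By class this share was highest in SWI/SNF genes, 55.1% and 52.2%, and lowest in DNA methylation genes, 25.6% and 23.1%. Peaks at the members' promoters were also wider in sum, with medians of 1032 and 957 bp in replicates 1 and 2, against 611 and 507 bp. The part of peak width in the position of the footprints was not tested.

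**Figure D5:**
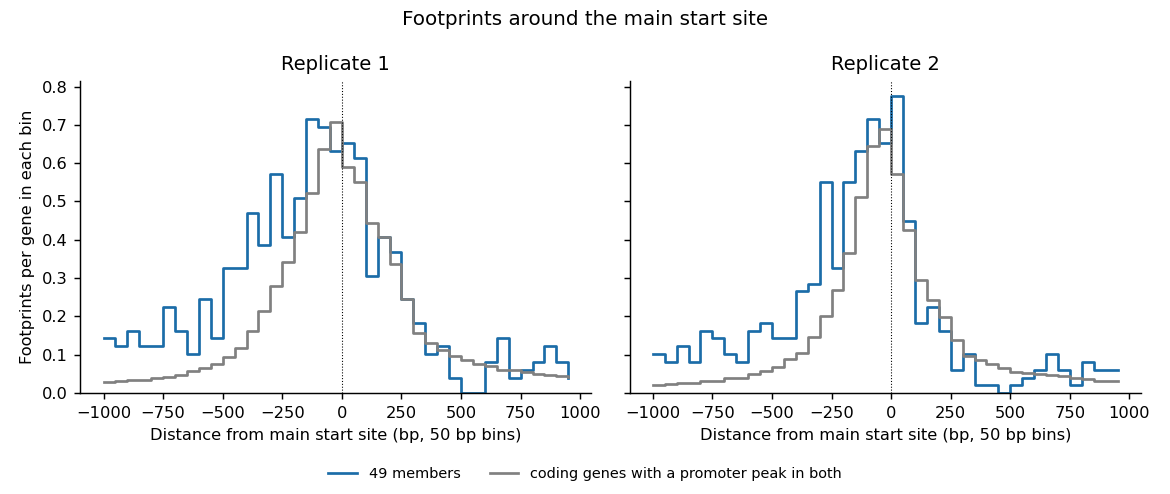
Footprints per gene in 50 bp bins (y axis) by distance from the main start site (x axis, bp, upstream negative) for the 49 members (blue) and for accessible coding genes (grey), 1 panel per library. Blue lies above grey from about 200 bp to 1 kb upstream in both panels, with 4.04 and 2.94 footprints per gene in that stretch against 1.67 and 1.23.

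Motifs were looked for on both strands within 1 kb of the main start site, counting those whose middle base lay in footprints of both libraries. GGGCGG, the GC box that SP and KLF factors can bind, was there in 21 of the 49 promoters, against 27.0% of all accessible promoters and 31.9% of CpG-rich ones. Counted anywhere in the window it was in 48 of the 49, against 90.2% of all. Among the classes, 8 of 14 histone methylation and 5 of 8 SWI/SNF promoters held it, against 2 of 10 DNA methylation and 2 of 8 deacetylase promoters. The members also had more footprints per gene within 1 kb of the main start site. There were 504 and 395 in replicates 1 and 2 over 49 genes, against 104757 and 83219 over 13742 accessible genes. The part of this in the motif shares was not tested. GCGCATGCG, the core of the site of NRF1, was found so in 5 of the 49, Dnmt1, Mbd3, Kmt2c, Eed and Smarcb1, against 3.62% of all, and counted anywhere it was in the same 5, against 5.34%. None of the 49 held in such footprints a match to the other 8 motifs searched (CCGGAAG of ETS, AAGATGGCG of YY1, TGACGTCA of CRE, the E-boxes CACGTG and CAGATG, CCACNAGGG of CTCF, TGANTCA of AP-1 and TCTCGCGA of ZBTB33). In accessible promoters these were so found in 0.0364%, for AP-1, to 2.66%, for ETS, and no match says only that these letters were not in such footprints.

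The 6 NRF1 matches are shown with their surroundings because the same letters recur at genes of 3 classes. Each line has 30 bases on the strand of the gene, and capitals mark bases in footprints of both libraries. The motif is nearly its own reverse complement, so overlapping matches on the 2 strands were taken as 1 site.
Dnmt1, chr9:20952590-20952619, minus strand: cagccaGGGCGCGCATGCGCGGGgcagcgt
Dnmt1, chr9:20952931-20952960, minus strand: cctcCGTTGCGCGCATGCGCACTCccttcg
Mbd3, chr10:80398916-80398945, minus strand: ctcgcCTCAGCGCGCATGcgttgaacccag
Kmt2c, chr5:25499620-25499649, minus strand: gtagcgCGGGGCGcATGCGCGGActcagcc
Eed, chr7:89981227-89981256, minus strand: atacgCCTCAGCGCATGCGCAcctgcaggt
Smarcb1, chr10:75921583-75921612, minus strand: cagcttCTCCACGCATGCGCACCGAgggcg
Relative to the main start site, with upstream negative, the Smarcb1 site lay at 20 bp and those of Dnmt1 at -100 and 241 bp. The sites of Eed and Kmt2c lay at -258 and -851 bp, and that of Mbd3 at 620 bp.

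A wider list of 138 other chromatin genes, which includes acetyltransferases, demethylases, Polycomb repressive complex 1 and the remaining SWI/SNF subunits, gives the setting. All 138 had a promoter peak in both libraries, so a full count is not particular to the 49. The members' median promoter rank of 78.3 stood against 61.3 for these genes and 51.9 for accessible genes. Within the wider list the remaining SWI/SNF genes had the highest class median, 78.2, and the remaining DNA methylation genes the lowest, 49.3. Of the 138, 24 had peaks in both libraries at promoters over 2 kb apart. Their median distal percentile was 47.6, with 77.4 in Polycomb repressive complex 1 genes and 70.9 in the remaining SWI/SNF genes.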

How the data were processed

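DNase-seq files of 2 libraries in 1 group were analysed. Per the lists of files deposited with each library, the authors made them per library on mm10, without pooling; aligner and callers were not stated. The deposited peak value is a signal, taken from the longer list, with no stated depth, so it carries no interval. The deposited runs of bases carry a p-value type measure, an FDR, under 0.05 throughout. The deposited footprint score column is constant, and positions alone were used.

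Genes came from GENCODE M21, and sequences from GRCm38.p6. Peaks may overlap within a library, as 14 and 7 of the members' distal peaks did. A dense run is at least 5 consecutive peaks of 1 library alone, with gaps of at most 2 kb. Python 3.11.15 with numpy 2.4.6, scipy 1.17.1, pandas 2.3.3, pysam 0.24.0, bedtools 2.31.1, samtools 1.23.1 and matplotlib 3.10.9 was used, and the counting was tested on simulated peaks. Counts, medians and ranks are descriptions without a test, over libraries whose spread may be technical. Values are given, in each class, for the 2 members highest and the 1 lowest in promoter value and in distal percentile, and for members with several accessible promoters; other members are given for their roles. Alternatives were another peak list, promoter window, transcript set, flank, overlap rule and each library left out. The members and lists were chosen with earlier results of these data known. Some items are not reported here.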

Additional observations from a re-analysis of the deposited data

How the results depend on the processing

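Counts of members with a promoter peak, a distal peak or a footprint in both libraries stayed within 1.5 times under every alternative tried. In these cases medians moved by more than the SD between the libraries, and shares left their binomial interval, which treats peaks as independent. With a promoter window of 500 bp the median promoter rank was 66.2 for the members and 72.3 for histone methylation. For CHD it was 55.3 with the shorter peak list, 63.0 with a window of 2.5 kb and 53.9 with basic coding transcripts. Medians of other genes were not taken under these alternatives, so the members' excess over them is not known there. The median distal percentile with the shorter list was 50.2 for the members, 32.1 for DNA methylation, 53.4 for histone methylation and 59.4 for CHD. In the gene body alone it was 44.2 for the members, 47.4 for DNA methylation, 34.8 for histone methylation, 54.1 for CHD and 55.7 for SWI/SNF. With 50 kb on each side it was 69.5 for the members, 66.0 for DNA methylation, 72.1 for deacetylation, 63.6 for histone methylation and 78.5 for SWI/SNF. The median footprint density was 9.12 per kb with footprints wholly inside the peak, 10.2 with the shorter list and 9.75 with a 500 bp window. With a reciprocal overlap of at least 50%, 37.2% and 35.4% of distal peaks of replicates 1 and 2 were shared. For replicate 2 the share was 48.4% with the shorter list and 69.9% without dense runs of peaks, an alternative chosen after seeing the data. The causes were not tested.

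Leaving out 1 library gave promoter ranks of 74.3 to 78.6 for the members, 83.0 to 87.4 for histone methylation, 61.3 to 63.7 for CHD and 82.0 to 86.9 for SWI/SNF. Distal percentiles were 47.1 to 54.4 for DNA methylation, 43.9 to 59.6 for deacetylation, 46.1 to 48.4 for histone methylation and 63.1 to 70.6 for SWI/SNF. Footprint density was 8.97 to 9.06. No paired analysis was possible because both libraries form 1 group. With 2 libraries, an SD rests on 2 values.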

Other observations

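Some promoters of the members had a peak in 1 library. In replicate 1 alone these were the most internal promoter of Hdac5 with 0.777, an internal promoter of Hdac9 with 0.714, one of Chd8 with 0.382 and the most internal one of Smarca2 with 0.890. In the library labelled male replicate 2 alone they were an internal promoter of Mbd4 with 0.238, an internal one of Ehmt1 with 0.548 and one of Chd9 with 0.696. At the Ehmt1 and Chd9 promoters the other library held 18 bases each with an FDR under 0.05, and at that of Smarca2 it held 10.

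In the wider list of chromatin genes, Kdm6b, a demethylase of histone H3 lysine 27, combined 1 of the lower promoter values of the list, 1.08 in replicate 1, against 0.715 in the library labelled male replicate 2, with 19 and 21 distal peaks, the top of the percentile scale. Cbx6, a chromodomain subunit of Polycomb repressive complex 1, had 13 distal peaks in replicate 1, against 8 in the library labelled male replicate 2. Kdm5c and Kdm6a, demethylase genes on the X chromosome, had promoter values of 1.31 and 2.34 in replicate 1, against 2.14 and 3.78 in the library labelled male replicate 2. These genes were picked after their values were seen.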
